A study of Mus musculus with 12 samples.

Results

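The 10 genes described here encode the machinery with which a cell recognizes bacterial lipopolysaccharide (LPS) and passes the signal to its first kinases. They are named by symbol for their part in LPS recognition and signalling, among the 54119 genes summed per library, and all 10 were among the 19150 genes that passed the filter on low counts. Lbp, Cd14, Ly96, and Tlr4 encode the proteins that bind LPS. Tirap, Myd88, Ticam2, and Ticam1 encode the adaptors, and Irak4 and Irak3 encode a kinase and its inhibitory relative.

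LPS-binding protein takes LPS from bacterial membranes and hands it to CD14, which passes it to MD-2 (the product of Ly96) held by Toll-like receptor 4. The receptor then recruits TIRAP and MyD88 at the plasma membrane, which assemble with IRAK4 to activate NF-κB and MAP kinases, and, after uptake into endosomes, TRAM (Ticam2) and TRIF (Ticam1), which lead to the interferon regulatory factor IRF3. In the brain, the cells of the vessel wall meet circulating LPS first, and CD14 can be held in a cell membrane or act as a soluble protein.

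RNA was sequenced from cerebral vessels isolated from the forebrain of wild type C57BL6 mice aged 2 to 3 months. Mice received LPS at 10 mg/kg intraperitoneally for 15 min, 30 min, or 4 h, or PBS, and no group carried a transgene or deletion. Each of the 4 groups had 3 libraries, and each library was a pool of the vessels of 1 male and 1 female mouse, so that sexes and single animals cannot be compared. The preparation was a vessel fraction of perfused forebrain freed of meninges, not a sorted cell type, and fewer cells of a type and less RNA per cell cannot be told apart in such bulk samples.

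The libraries held 18.3 to 25.9 M fragments. All 8 endothelial, 7 pericyte, and 5 smooth muscle markers listed for the check of the tissue were detected in every group. Libraries were scaled with the trimmed mean of M values (TMM), whose factors averaged 0.717 at LPS 4 h and 1.17 in PBS. CPM values below are counts relative to the library total on this scale. They compare 1 gene between libraries, and TPM values, which are corrected for transcript length and sum to the same total in each library, compare genes with each other. A gene was called higher or lower where the edgeR test for a change beyond 1.5-fold gave a p below 0.05 after Benjamini-Hochberg adjustment across the 19150 genes. With scaling to library size alone, the median log2 fold change of all genes moved to -0.71 at LPS 4 h against PBS, to -0.58 at LPS 4 h against LPS 30 min, to -0.17 at LPS 30 min against PBS, and to -0.14 at LPS 30 min against LPS 15 min. The share of called genes that were higher then moved from 58.0% to 18.2%, from 58.8% to 21.7%, from 82.4% to 60.8%, and from 58.2% to 37.1%, respectively.

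The whole group can be summarized by time. At LPS 15 min, none of the 10 genes was called against PBS, where 4.25% of all genes tested were called. The edgeR test gave an unadjusted p below 0.05 for 0 of them, and 0 were called by DESeq2 or by limma. By 30 min of LPS, 1 of 10 was called, Cd14, which was higher, where the share of all genes was 4.62%, with 3.80% higher. At LPS 4 h, 6 of 10 were called, all higher (Cd14, Irak3, Myd88, Tlr4, Tirap, and Lbp), where 33.0% of all genes were called and 19.1% were called higher. The median log2 fold change of the 10 genes was -0.15, 0.37, and 1.23 after 15 min, 30 min, and 4 h of LPS, beside medians of all genes of 0.00, -0.01, and -0.01. The 3 comparisons share the PBS libraries.

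**Figure D1:**
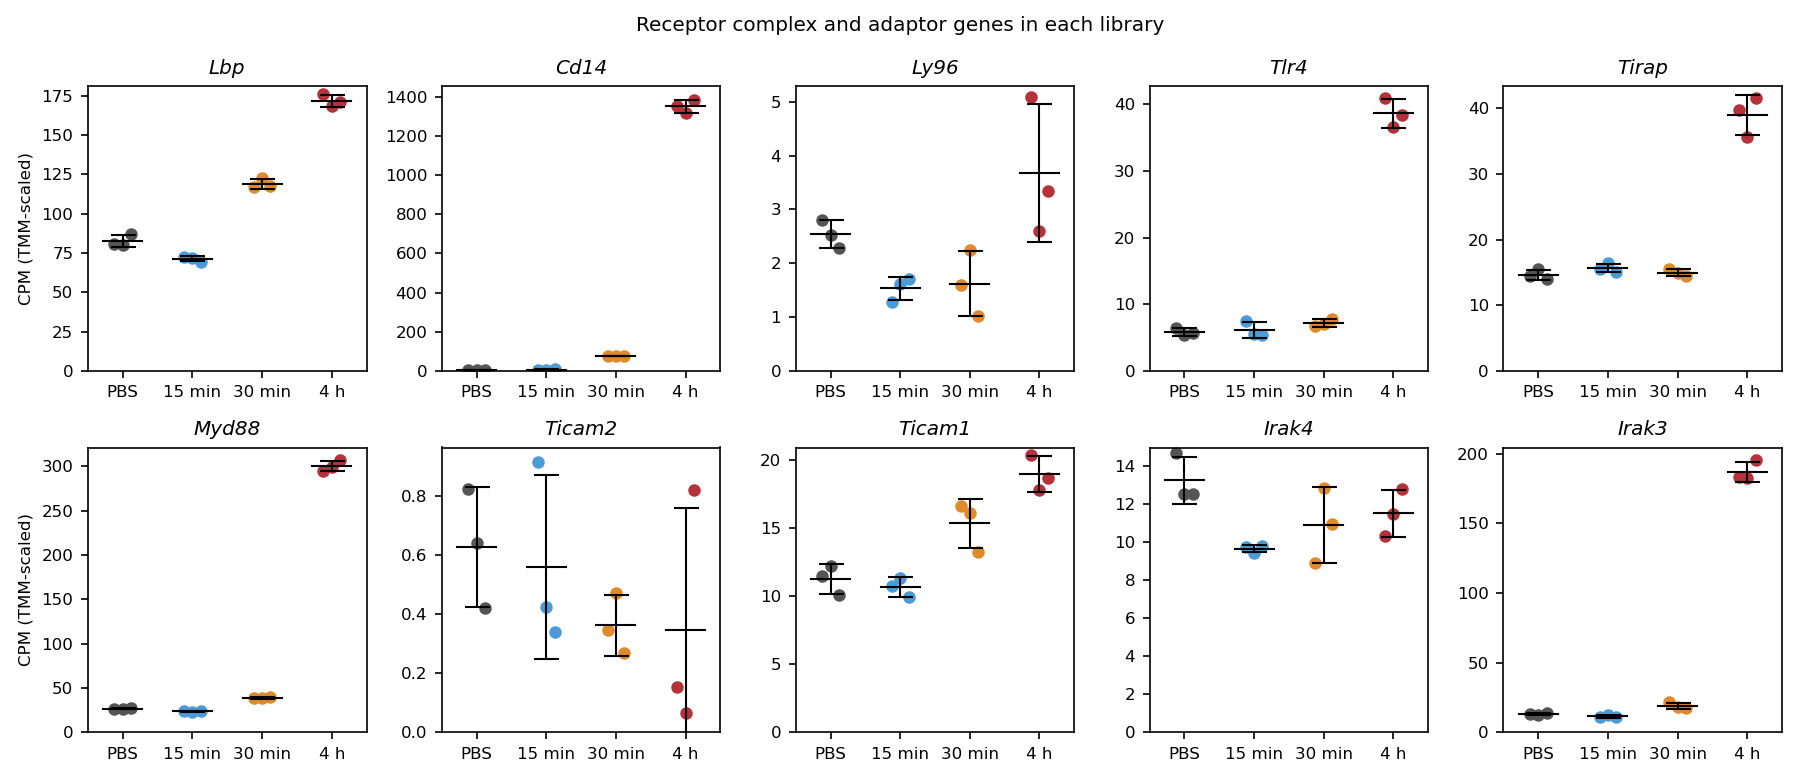
CPM (TMM-scaled, linear axes from 0, a scale of its own for each gene) of the 10 genes in the 12 libraries. Points are libraries, long lines are means, and bars with caps are SD of 3 libraries, and the bar of Ticam2 at LPS 4 h runs below 0 and is cut at the axis. At LPS 4 h, Tlr4, Tirap, Myd88, Irak3, Lbp, and, more narrowly, Ticam1 lay above all earlier libraries. Cd14 did so already at LPS 30 min, and Ticam2 and Ly96 had the widest spread.

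Cd14, the LPS co-receptor, changed most and was the first of the 10 to be called. In CPM, the PBS libraries held 4.38, 4.32, and 4.01 and the LPS 15 min libraries 6.51, 5.18, and 7.93. The LPS 30 min libraries held 76.7, 75.8, and 75.3, and the LPS 4 h libraries 1353, 1315, and 1383. Each group lay above the one before it with no overlap. Spread was narrow except at LPS 15 min.

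At LPS 15 min the log2 fold change of Cd14 against PBS was 0.63 ± 0.11 (SE), which did not pass the 1.5-fold test (adjusted p = 1, edgeR). Tested with no fold limit it was past 0 (adjusted p = 4.37e-05). By LPS 30 min Cd14 was 17.9-fold higher than in PBS (log2 4.16 ± 0.07, adjusted p = 4.58e-22) and 11.5-fold higher than at LPS 15 min (log2 3.53 ± 0.06, adjusted p = 9.60e-21). At LPS 4 h it was 318-fold higher than in PBS (log2 8.31 ± 0.06, adjusted p = 3.61e-30) and 17.8-fold higher than at LPS 30 min (log2 4.15 ± 0.04, adjusted p = 6.16e-27). The step from LPS 30 min to LPS 4 h was similar in size on the log2 scale as the step from PBS to LPS 30 min.

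The rank of Cd14 among the 19150 genes tested, by TPM, was 11635 to 11908 in PBS. It was 9464 to 11185 at LPS 15 min, 1571 to 1667 by LPS 30 min, and 98 to 103 at LPS 4 h. The estimated fragments behind these values were 105 to 128 in PBS and 17552 to 20253 at LPS 4 h, so counting error was a larger part of the PBS values. The gene spans 1.73 kb on chromosome 18 with 2 exons. Of its 2 annotated transcripts, the protein-coding one carried 82.8% ± 3.31 (SD, n = 3) of the gene's TPM in PBS and 92.5% ± 0.0744 at LPS 4 h, and the remainder was a retained-intron transcript. At LPS 15 min the share of the latter ran from 1.69% to 25.1% between libraries, and this share rests on an estimate over few fragments.

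Markers of leukocytes were summed over the same libraries. The summed CPM of 9 neutrophil markers was 7.12 to 8.86 in PBS and 5.22 to 7.28 at LPS 15 min. It was 8.52 to 10.5 by LPS 30 min and 234 to 238 at LPS 4 h. At LPS 4 h, 8 of the 8 neutrophil markers tested were called higher. The defining marker Ly6g did not pass the filter on low counts and was not tested. It was at 0 in all PBS and LPS 15 min libraries and at 0.297 ± 0.26 CPM (SD) at LPS 4 h. The 5 monocyte markers summed to 65.7 to 79.2 in PBS, 98.5 to 109.5 at LPS 30 min (1 called higher), and 170.3 to 172.2 at LPS 4 h (3 called higher). Their median log2 fold change at LPS 30 min was 0.16. By then Ly6c2 had gone from 38.9 ± 4.58 CPM (SD) in PBS to 71.4 ± 4.34, and Ccr2 from 2.99 ± 0.10 to 1.31 ± 0.37. Both genes were chosen after their values were seen.

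Resident myeloid markers did not move together. The 6 perivascular macrophage markers summed to 106 to 110.3 in PBS, 130.3 to 136 at LPS 30 min (1 called higher), and 166 to 173 at LPS 4 h (3 called higher). The gene called at LPS 30 min was Lyve1, a hyaluronan receptor, at 6.62 ± 0.82 CPM in PBS and 15.1 ± 0.53, a gene chosen after its values were seen. The 9 microglial markers summed to 159 to 165 in PBS, 147 to 156 at LPS 30 min (1 called lower), and 99.8 to 106 at LPS 4 h (1 called higher, 4 lower). The 8 endothelial markers summed to 8422 to 8678 in PBS and 4714 to 4742 at LPS 4 h, with 7 called lower and 1 higher. Of the non-vascular lists, 6 astrocyte markers summed to 639 to 659 in PBS and 1289 to 1338 at LPS 4 h. Only 3 of the 6 were called higher, and the median log2 fold change of the list was 0.51. The 5 neuronal markers summed to 307 to 319 in PBS and 480 to 491 at LPS 15 min. Only 2 of the 5 were called higher (median 0.62), but each of the 5 was higher at LPS 15 min with no overlap of libraries. The size of this rise differed, with mean CPM from 130 to 149 for Snap25 and from 71.4 to 169 for Slc17a7. The astrocyte sum does not describe a change shared by its whole list. Aldh1l1 had a mean of 25.1 CPM in PBS and 25.2 at LPS 4 h. The part of these cells in the values of Cd14, Tlr4, Myd88, Irak3, and the other genes was not tested.

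Tlr4, the signaling receptor itself, was called only at LPS 4 h among the 3 times. Its PBS libraries held 6.48, 5.36, and 5.65 CPM and its LPS 15 min libraries 7.53, 5.56, and 5.36. The next values were 6.72, 7.01, and 7.82 at LPS 30 min, and at LPS 4 h they were 40.9, 36.6, and 38.4. The first 2 groups overlapped, the LPS 30 min libraries lay just above PBS, and the LPS 4 h libraries stood clear of all others.

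Tlr4 was 6.63-fold higher at LPS 4 h than in PBS (log2 2.73 ± 0.12, adjusted p = 4.00e-14, edgeR) and 5.38-fold higher than at LPS 30 min (log2 2.43 ± 0.12, adjusted p = 6.93e-13). Against PBS, its log2 fold change was 0.09 ± 0.13 at LPS 15 min and 0.30 ± 0.13 at LPS 30 min (adjusted p = 1 for both). The gene lies on chromosome 4 from 66827584 to 66930284 on the plus strand (GRCm38), spans 103 kb, and its main transcript has 3 exons. This transcript carried 95.0% to 100% of the gene's TPM as a group mean.

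Ly96 encodes MD-2, the subunit of the receptor that holds the lipid of LPS, and it was not called against PBS at any time. It had few fragments in every library (23 to 75). In CPM, the PBS libraries held 2.81, 2.53, and 2.29, the LPS 15 min libraries 1.29, 1.61, and 1.70, the LPS 30 min libraries 1.60, 2.24, and 1.03, and the LPS 4 h libraries 5.09, 2.60, and 3.35. Both early groups lay below PBS, and the LPS 4 h group, with its widest spread, overlapped PBS. The gene lies on chromosome 1 from 16688051 to 16709611 on the plus strand and has 5 exons.

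Against PBS, the log2 fold change of Ly96 was -0.73 ± 0.28, -0.64 ± 0.28, and 0.52 ± 0.27 at the 3 times in order, with adjusted p of 1, 1, and 0.631 (edgeR), and the sign of the last turned with library size alone (-0.18). Between LPS 30 min and LPS 4 h it was 2.24-fold higher (log2 1.17 ± 0.29, adjusted p = 0.0261). This call was lost with DESeq2 (adjusted p = 0.170), with limma on the deposited normalized values (0.113 and 0.190), with library size alone (0.348), and without LPS 30 min replicate 1 (0.0520), LPS 30 min replicate 3 (0.133), or LPS 4 h replicate 1 (0.187).

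Levels of the subunits can be set side by side per length. The ratio of Cd14 to Tlr4 in TPM was 2.19 ± 0.21 (SD, n = 3) in PBS, and 3.34 ± 1.3, 31.3 ± 3.04, and 95.5 ± 5.79 after 15 min, 30 min, and 4 h of LPS. The ratio of Ly96 to Tlr4 was 4.52 ± 0.16 in PBS, and then 2.70 ± 0.82, 2.37 ± 0.89, and 0.968 ± 0.26. The libraries of PBS and LPS 4 h did not overlap in either ratio, which ran in opposite directions. A ratio of RNAs within a library does not give the ratio of the proteins.

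Lbp, which encodes the carrier that delivers LPS to CD14, was the highest of the 10 genes per length in PBS. Its PBS libraries held 80.9, 80.4, and 87.1 CPM and its LPS 15 min libraries 72.7, 71.6, and 69.6. It held 117, 122, and 117 CPM at LPS 30 min, and at LPS 4 h 176, 168, and 171. The groups did not overlap: LPS 15 min lay lowest, followed by PBS, LPS 30 min, and LPS 4 h.

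Lbp was 2.08-fold higher at LPS 4 h than in PBS (log2 1.05 ± 0.04, adjusted p = 1.18e-11, edgeR) and 1.67-fold higher at LPS 30 min than at LPS 15 min (log2 0.74 ± 0.04, adjusted p = 0.00135). Both calls depended on the scaling. With library size alone, the log2 fold change at LPS 4 h was 0.35 and was not called (adjusted p = 1), and that between LPS 15 min and LPS 30 min was 0.60 (adjusted p = 0.949), and limma also lost the latter (0.0870 and 0.0992). In TPM, Lbp had a mean of 58.7 ± 3.01 in PBS, 66.6 ± 2.22 at LPS 30 min, and 65.4 ± 2.94 at LPS 4 h, and the last 2 groups overlapped. The gene lies on chromosome 2 from 158306493 to 158332852 on the plus strand, and the share of its main transcript was 92.6% ± 2.24 in PBS and 88.1% ± 2.45 at LPS 4 h.

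For the adaptors, the promoters of Myd88 and Ticam1 are shown, because these genes head the 2 signaling branches. RefSeq promoter windows were at hand for 5 of the 10 genes (Tirap, Myd88, Irak3, Irak4, and Ticam1, 7 windows), in GRCm38.p6. Each line gives the 250 bases before the RefSeq start, 5′ to 3′ on the minus strand, at chr9:119340019-119340268 for Myd88 and chr17:56276768-56277017 for Ticam1, and capitals mark matches to the motifs searched.
Myd88: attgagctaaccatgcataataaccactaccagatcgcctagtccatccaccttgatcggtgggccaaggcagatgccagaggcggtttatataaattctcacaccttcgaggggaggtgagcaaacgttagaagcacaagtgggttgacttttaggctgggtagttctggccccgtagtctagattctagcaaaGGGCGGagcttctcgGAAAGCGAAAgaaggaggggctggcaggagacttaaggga
Ticam1: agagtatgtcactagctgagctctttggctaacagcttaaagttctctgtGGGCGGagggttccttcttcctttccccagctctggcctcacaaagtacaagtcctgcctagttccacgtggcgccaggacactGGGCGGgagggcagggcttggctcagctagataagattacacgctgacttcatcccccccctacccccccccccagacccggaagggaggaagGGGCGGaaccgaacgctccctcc

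The motifs were searched on both strands. The Myd88 window held 1 match to the interferon-stimulated response element (GAAA, any 2 bases, and GAAA again) that starts 40 bases before the RefSeq start, and 2.98% of 32851 promoter windows of the same length held such a match. It also held 1 GC box (GGGCGG), while the Ticam1 window held 3 and no response element, and 32.7% of all windows held at least 1 GC box. Neither window held a match to AP-1 (TGANTCA, in 6.75% of windows), the cAMP response element (TGACGTCA, 1.55%), C/EBP (TTNNGCAA, 9.56%), or the κB motif (7.25%), and the κB motif matched in 0 of the 7 windows. No motifs overlapped one another. These matches describe letters in the windows and not binding.

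Myd88 encodes the adaptor shared by most Toll-like receptors and the interleukin-1 receptor. In CPM, its PBS libraries held 26.1, 27.0, and 27.9 and its LPS 15 min libraries 24.0, 23.6, and 24.7. The LPS 30 min libraries held 38.6, 38.3, and 40.0, and the LPS 4 h libraries 295, 299, and 307. The 4 groups did not overlap, with LPS 15 min lowest.

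Myd88 was 11.1-fold higher at LPS 4 h than in PBS (log2 3.48 ± 0.04, adjusted p = 4.21e-26, edgeR) and 7.71-fold higher than at LPS 30 min (log2 2.95 ± 0.04, adjusted p = 1.44e-24). The earlier log2 fold change at LPS 30 min was 0.53 ± 0.04 against PBS, under the 1.5-fold limit, and 0.69 ± 0.04 against LPS 15 min, where the adjusted p was 0.0502. The latter passed with RLE size factors (adjusted p = 0.0369) and with the replicate number as a block (0.0435). Myd88 lies on chromosome 9 from 119335934 to 119341411 on the minus strand, with 6 exons in 5.48 kb. Of the 1960 bases of its main transcript, 223 lie in exons of Acaa1a on the opposite strand, which was at 86.4 to 132 TPM, and the library kit keeps no strand, so reads from these bases cannot be told apart.

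Ticam1, whose product TRIF is the adaptor of the endosomal branch, had 11.5, 12.2, and 10.1 CPM in PBS and 10.8, 11.4, and 9.93 at LPS 15 min. It had 16.7, 16.1, and 13.3 CPM at LPS 30 min and 20.4, 17.8, and 18.7 at LPS 4 h. The early groups overlapped, and both later groups lay above them. The log2 fold change was 0.44 ± 0.11 at LPS 30 min and 0.75 ± 0.11 at LPS 4 h against PBS, and neither passed the 1.5-fold test (adjusted p = 1 and 0.0587, edgeR).

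The value of Ticam1 at LPS 4 h was close to the threshold. It passed with the replicate number as a block (adjusted p = 0.0413), without PBS replicate 2 (0.0326), and without LPS 4 h replicate 2 (0.0444). Over the 10 alternative settings, the log2 fold change of Ticam1 at LPS 4 h against PBS ran from 0.04 to 0.75. The rise did not show in TPM, where the mean was 6.24 ± 0.65 in PBS and 5.56 ± 0.45 at LPS 4 h. The libraries of these 2 groups overlapped in TPM. Ticam1 lies on chromosome 17 from 56269319 to 56276786 on the minus strand and had 1 transcript quantified. The ratio of Myd88 to Ticam1 in TPM was 3.88 ± 0.53 (SD, n = 3) in PBS, and 3.65 ± 0.34, 4.12 ± 0.62, and 25.7 ± 2.06 at the 3 times in order, with the LPS 4 h libraries apart from all others.

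Tirap encodes the adaptor that brings MyD88 to the receptor at the membrane. Its CPM values were 14.4, 15.5, and 13.9 in PBS, 15.6, 16.4, and 15.1 at LPS 15 min, 15.6, 14.9, and 14.5 at LPS 30 min, and 39.8, 35.6, and 41.5 at LPS 4 h. The first 3 groups overlapped one another and LPS 4 h stood above them. It was 2.66-fold higher at LPS 4 h than in PBS (log2 1.41 ± 0.08, adjusted p = 1.50e-10, edgeR) and 2.60-fold higher than at LPS 30 min (log2 1.38 ± 0.08, adjusted p = 4.95e-10). With library size alone the first value was 0.71 on the log2 scale and was still called (adjusted p = 0.0293).

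Tirap lies on chromosome 9 from 35184551 to 35200291 on the minus strand. Its main transcript carried 79.0% ± 3.37 of its TPM in PBS and 73.9% ± 7.09 at LPS 4 h, and another protein-coding transcript carried 17.0% ± 0.74 and 15.8% ± 6.13. The main transcript shares 446 of 4589 bases with exons of Gm39318 and 39 with those of Srpr, both on the opposite strand.

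Ticam2, whose product TRAM links TLR4 to TRIF, was the lowest of the 10 genes in every group. It had 0.824, 0.641, and 0.420 CPM in PBS, 0.916, 0.425, and 0.340 at LPS 15 min, 0.347, 0.473, and 0.268 at LPS 30 min, and 0.154, 0.0666, and 0.820 at LPS 4 h. The groups overlapped, and at LPS 4 h 1 library was nearly as high as the highest in PBS while the other two were the lowest of all 12.

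The fragments behind these values were 11 to 22 in PBS and 1 to 12 at LPS 4 h. The log2 fold change of Ticam2 at LPS 4 h was -0.83 ± 0.66 (adjusted p = 0.547, edgeR), and without LPS 4 h replicate 3 it was -2.49 (adjusted p = 0.0402), so that 1 library decides the value. Its main transcript shares 838 of 4204 bases with exons of Tmed7 on the same strand of chromosome 18, which was at 32.2 to 46.5 TPM, so its values also rest on how the reads were split between both genes.

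Irak4 encodes the kinase that MyD88 recruits first. It had 14.7, 12.5, and 12.5 CPM in PBS, 9.73, 9.43, and 9.78 at LPS 15 min, 8.89, 12.9, and 10.95 at LPS 30 min, and 10.3, 11.5, and 12.8 at LPS 4 h. The LPS 15 min libraries lay below all of PBS, and both later groups overlapped PBS. The log2 fold changes against PBS were -0.46 ± 0.12, -0.28 ± 0.12, and -0.20 ± 0.13 at the 3 times (adjusted p = 1 for each, edgeR). With library size alone the LPS 4 h value was -0.90 and was called lower (adjusted p = 0.00488), and in TPM the gene was at 8.24 ± 1.18 in PBS and 3.63 ± 0.32 at LPS 4 h. Irak4 lies on chromosome 15 from 94543643 to 94581815 on the plus strand with 12 exons.

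Irak3, also known as IRAK-M, encodes a relative of IRAK4 without kinase activity that restrains signaling through MyD88. Its PBS libraries held 13.04, 12.6, and 13.9 CPM and its LPS 15 min libraries 10.8, 12.4, and 11.1. Values of 21.5, 18.1, and 17.7 followed at LPS 30 min, and at LPS 4 h 183, 183, and 195. The groups did not overlap, with LPS 15 min lowest and LPS 4 h far above the rest.

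Irak3 was 14.2-fold higher at LPS 4 h than in PBS (log2 3.83 ± 0.06, adjusted p = 7.78e-23, edgeR) and 9.78-fold higher than at LPS 30 min (log2 3.29 ± 0.06, adjusted p = 1.80e-21). Earlier, at LPS 30 min, it was at 0.54 ± 0.08 on the log2 scale against PBS (adjusted p = 1) and at 0.75 ± 0.08 against LPS 15 min (adjusted p = 0.106), which passed without LPS 15 min replicate 2 (0.0481) or LPS 30 min replicate 3 (0.0493). The ratio of Irak3 to Irak4 in TPM was 0.929 ± 0.16 (SD, n = 3) in PBS, and 1.11 ± 0.13, 1.72 ± 0.54, and 15.9 ± 0.83 at the 3 times in order. Irak3 lies on chromosome 10 from 120141648 to 120202130 on the minus strand, and its main transcript shares 70 of 3097 bases with exons of Tmbim4 (94.6 to 144 TPM) and 28 with those of Gm47009, both on the opposite strand.

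**Figure D2:**
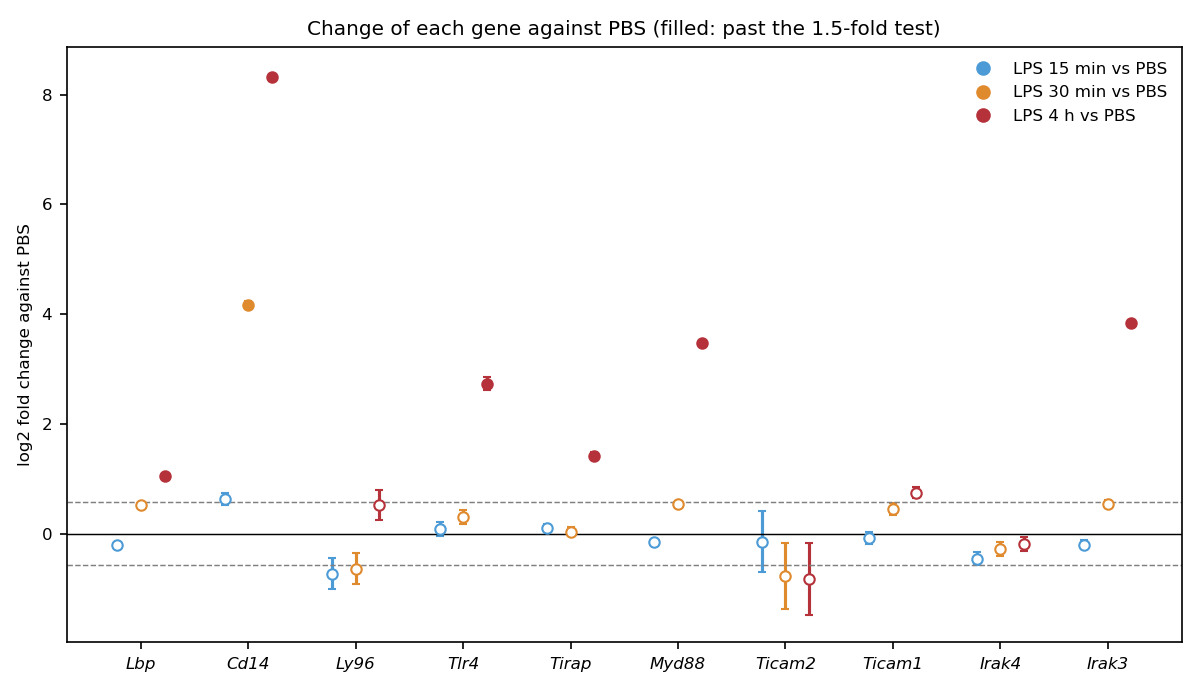
Log2 fold change against PBS (vertical axis) of the 10 genes at LPS 15 min, LPS 30 min, and LPS 4 h, with bars for SE, from 3 libraries a group. Filled points were called beyond 1.5-fold (dashed lines at ± 0.58), and they are Cd14 at LPS 30 min and Cd14, Irak3, Myd88, Tlr4, Tirap, and Lbp at LPS 4 h.

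The steps between times were also tested directly. Between LPS 15 min and LPS 30 min, 2 of the 10 genes were called, both higher (Cd14 and Lbp), where 4.76% of all genes were called and 2.77% were called higher. Between LPS 30 min and LPS 4 h, 6 were called, all higher (Cd14, Irak3, Myd88, Tlr4, Tirap, and Ly96), where 28.9% of all genes were called and 17.0% were called higher.

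Smaller changes show without the fold limit. Without the fold limit, 6 genes were past an adjusted p of 0.05 at LPS 15 min against PBS, Cd14 higher and Ly96, Irak4, Lbp, Irak3, and Myd88 lower, where 38.6% of all genes were called, 20.4% higher and 18.2% lower. The 5 lower genes were at -0.73, -0.46, -0.22, -0.21, and -0.16 on the log2 scale. Of them 4, all but Irak4, had a higher mean CPM at LPS 4 h than in PBS. The mean TPM of Ly96 was lower at LPS 4 h (8.52 against 10.7), but its libraries overlapped in TPM. In the same way, Cd14, Lbp, Myd88, Irak3, and Ticam1 were higher at LPS 30 min than in PBS (19.7% of all genes) and than at LPS 15 min (19.2%). At LPS 4 h, Ticam1 joined the genes higher than in PBS (34.9% of all genes). Ticam1 and Lbp joined those higher than at LPS 30 min (31.9%). Both had a lower mean TPM at LPS 4 h than at LPS 30 min, with libraries that overlapped in TPM.

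The order of the genes per length changed with time. In PBS, Lbp (58.7 TPM) was followed by Myd88 (24.0), Ly96 (10.7), Irak4 (8.24), Irak3 (7.54), Ticam1 (6.24), Tirap (5.90), Cd14 (5.16), Tlr4 (2.36), and Ticam2 (0.248). Neighbours overlapped between Irak4 and Irak3, between Ticam1 and Tirap, and between Tirap and Cd14. The receptor gene was thus the lowest but one.

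At LPS 15 min, Lbp (48.9 TPM) and Myd88 (21.5) kept the first ranks, and the next 6 genes, Cd14, Irak3, Ly96, Tirap, Irak4, and Ticam1, lay between 5.91 and 7.82 and each overlapped its neighbour. Later, at LPS 30 min, Cd14 (74.4 TPM) stood above Lbp (66.6) and Myd88 (28.0), with no overlap. At LPS 4 h, Cd14 (826 TPM) was followed by Myd88 (142), Lbp (65.4), and Irak3 (57.6), without overlap. Tirap (8.88), Tlr4 (8.67), and Ly96 (8.52) each overlapped the next, down to Ticam1 (5.56). Irak4 (3.63) and Ticam2 (0.0726) were lowest, and Ticam1 did not overlap Irak4. The ratio of Lbp to Cd14 was 11.4 ± 1.33 (SD, n = 3) in PBS and 0.0792 ± 0.0028 at LPS 4 h.

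**Figure D3:**
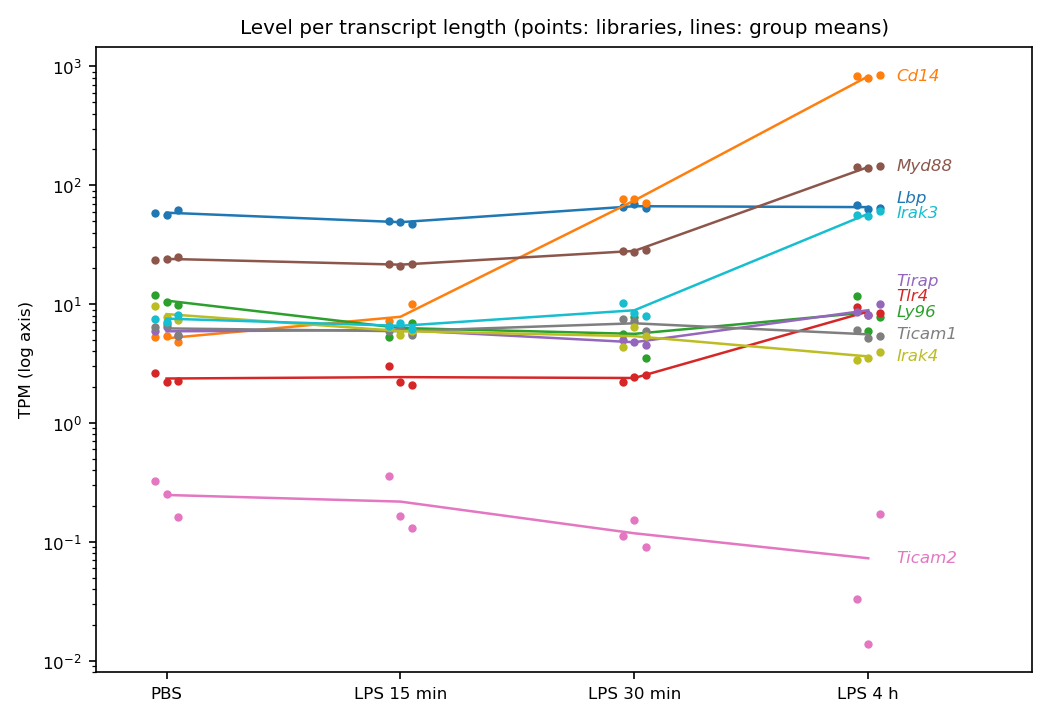
TPM (log axis) of the 10 genes in the 4 groups. Points are libraries and lines join group means, and Cd14 crosses from 5.16 TPM in PBS to 826 at LPS 4 h while Irak4 and Ticam2 end lowest.

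Over the 12 libraries, log2(CPM + 1) of Myd88 and Irak3 had a Pearson r of 0.998, and Tlr4 had an r of 0.989 with Myd88, 0.986 with Irak3, and 0.981 with Tirap. Cd14 was closest to Lbp (0.971). Irak4 had an r between -0.02 and 0.42 with the other 9, and Ticam2 between -0.46 and 0.36. The libraries fall into 4 groups, so these values describe how the group levels line up and carry no test.

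Among 12802 genes with a mean of at least 5 CPM, the genes most like Tlr4 were Bst2 (r = 0.997), which encodes the antiviral protein tetherin, Psma5 (0.996), a proteasome subunit, and Cxcl16 (0.996), a membrane-bound chemokine. The genes most like Cd14 were Bcl10 (0.999), an adaptor of NF-κB signaling, Pcf11 (0.998), a factor of transcript 3′ end formation, and Hspa5 (0.998), the chaperone BiP. Bcl10 rose in mean CPM from 22.2 ± 1.32 in PBS to 47.6 ± 1.08 at LPS 30 min and 110.1 ± 5.69 at LPS 4 h, so a high r does not mean a similar size of change. The genes most like Irak3 were Ifitm2 (0.999), an interferon-induced membrane protein, Hp (0.999), which encodes haptoglobin, and Mapre1 (0.999), a microtubule end-binding protein. Such likeness was common, since 235 genes had an r above 0.99 with Tlr4, 48 with Cd14, and 371 with Irak3.

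The wider pathway was followed with 60 genes listed by role, of which 59 were tested. Called genes numbered 2 of 59 at LPS 15 min, both higher, 5 at LPS 30 min, all higher, and 34 at LPS 4 h, 28 higher and 6 lower. The shares of all genes called higher were 3.35%, 3.80%, and 19.1%, and 13.9% were called lower at LPS 4 h. The list was chosen with earlier results of these data known, so its counts describe these genes and carry no test. The median log2 fold change of the list was -0.08, 0.00, and 0.50 at the 3 times. At LPS 15 min the 2 genes were Tnfaip3, which encodes the ubiquitin-editing inhibitor A20 (log2 1.44), and Map3k8, the kinase Tpl2 (1.06). By LPS 30 min they were joined by Zc3h12a, which encodes the RNase Regnase-1 (2.46), Tlr2 (1.45), and Irak2 (0.96), while Tnfaip3 was at 5.11 and Map3k8 at 1.47.

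Among the kinases and ubiquitin ligases downstream of MyD88, 7 of 16 were called higher and 1 lower at LPS 4 h. The shares of all genes were 19.1% higher and 13.9% lower. Map3k8 went from 20.4 ± 2.52 CPM (SD, n = 3) in PBS to 336 ± 3.99 (log2 4.03), Irak2, a kinase-like partner of IRAK4, from 45.7 ± 1.36 to 416 ± 10.9 (3.18), and Peli1, a ubiquitin ligase of IRAK proteins, from 59.7 ± 3.05 to 239 ± 5.56 (2.00). Irak1 was at 107 ± 0.56 and 90.6 ± 0.47 CPM and was not called (log2 -0.24, adjusted p = 1, edgeR). In the TRIF branch, 5 of 8 were called, all higher. Ikbke (3.47), Tbk1 (2.67), and Azi2 (2.51), which encode a pair of kinases that phosphorylate IRF3 and one of their scaffolds, had the largest log2 fold changes, beside the 0.75 of Ticam1 itself.

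Among the receptor homologues, co-receptors, and LPS-handling genes, 5 of 9 tested were called higher and 1 lower at LPS 4 h. The shares of all genes were again 19.1% and 13.9%. Tlr2, the receptor for bacterial lipoproteins, went from 7.64 ± 0.77 to 453 ± 3.99 CPM (log2 5.89). Msr1, a scavenger receptor of macrophages, was at 4.26 on the log2 scale and Itgam, an integrin chain of neutrophils and other myeloid cells, at 2.51. The neutrophil and monocyte markers given above moved at the same time, and their part in these values was not tested either.

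Of the 8 genes of chaperones and trafficking, 2 were called higher and 3 lower at LPS 4 h. Of all genes, 19.1% were called higher and 13.9% lower at that time. The largest change was that of Cd300lf (log2 4.99), an inhibitory receptor of myeloid cells and not a chaperone, which had only 0.455 ± 0.18 CPM in PBS. Rab7b, a small GTPase of late endosomes, was lower (-1.64), as was Cnpy4, a chaperone-related protein (-1.11). Of the 18 negative regulators, 9 were called higher and 1 lower. Tnip3 (6.28), Tnfaip3 (6.23), and Tnip1 (4.76), which encode A20 and 2 proteins that bind it, had the largest log2 fold changes, although Tnip3 had only 0.145 ± 0.15 CPM in PBS. Irak3 (3.83) lay below these 3.

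**Figure D4:**
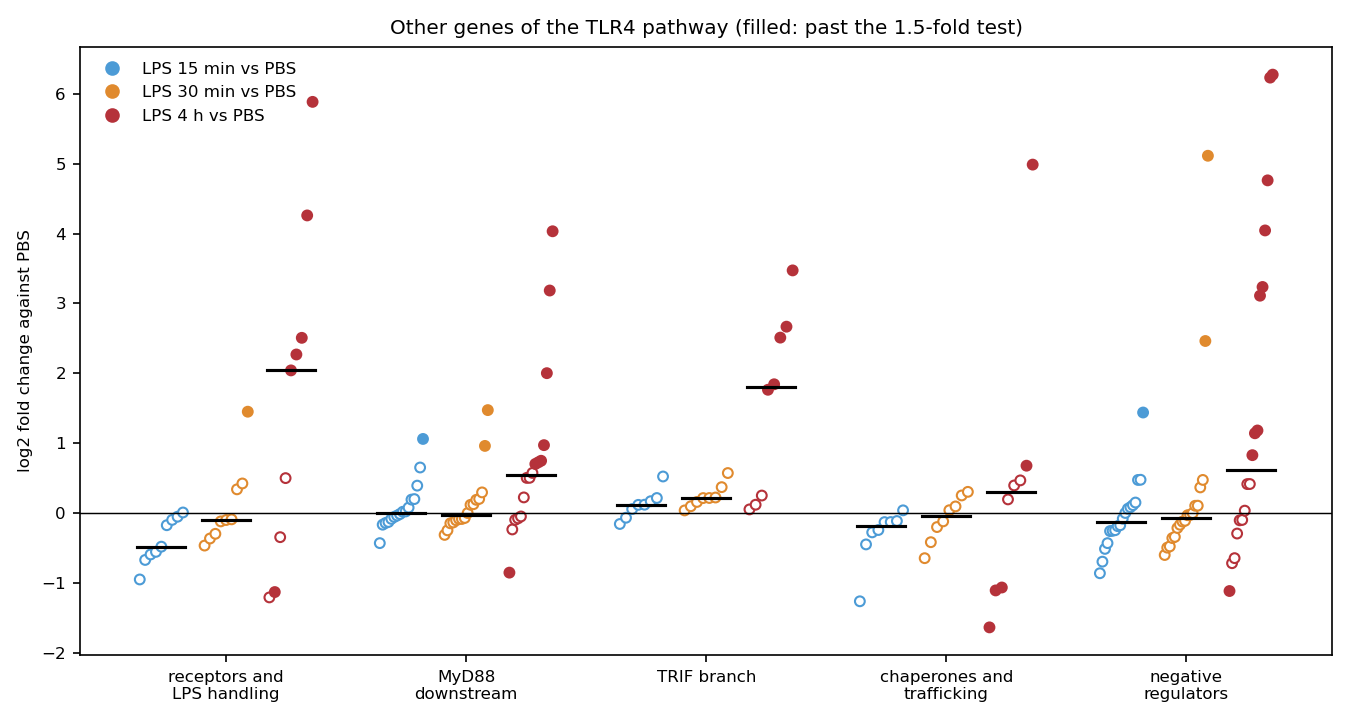
Log2 fold change against PBS (vertical axis) of the 59 tested pathway genes, grouped by role, at LPS 15 min, LPS 30 min, and LPS 4 h. Points are genes, filled where called beyond 1.5-fold, and black lines are medians, and 34 points are filled at LPS 4 h against 2 at LPS 15 min and 5 at LPS 30 min.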

How the data were processed

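RNA of 12 cerebral vessel libraries (SMART-Seq v4, Nextera XT, paired-end reads) was quantified by the authors with Salmon 1.2.1 on GRCm38.p6. The deposited estimated counts are fragments per transcript, not normalized. The deposited TPM values correct for transcript length and sum to the same total in each library. A table of gene values holds a normalized signal that the authors obtained with tximport and DESeq2, and it was used only for the limma alternatives.

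Here, estimated counts were summed per gene with GENCODE M21 (GRCm38), which left out 0.482% to 0.850% of fragments, rounded, filtered (filterByExpr, minimum count 10, total 15, share 0.7), scaled by TMM, and fitted in edgeR 4.0.16 (R 4.3.3) with glmQLFit on all 12 libraries. Changes beyond 0.58 on the log2 scale were tested with glmTreat, with Benjamini-Hochberg adjustment over 19150 genes. The SE of a log2 fold change comes from the quasi-likelihood F of the test against 0. Alternatives used DESeq2 1.42.0, limma 3.58.1 with pseudocounts of 1 and 10, other scalings, filters, and offsets, a replicate block, and each library left out.

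The code was tested on simulated data. Groups came from the sample records. The replicate number was not used as a pairing, because within-group deviations of same-numbered libraries had correlations of at most 0.0516 (18 comparisons). Libraries of a group differed by more than sampling noise. Whether the pools came from separate litters or days is not stated in the sources used here, so p-values measure the spread between these pools. All 10 genes were named. Of the pathway list, the 3 called genes with the largest absolute change per role were named, and the 3 genes most like Tlr4, Cd14, and Irak3 by Pearson r. Irak1 was chosen after its values were seen. The genes and lists were chosen with earlier results of these data known. Promoter sequences are from RefSeq.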

Additional observations from a re-analysis of the deposited data

Results flagged for a closer look

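For 7 of the 10 genes, the effect of LPS against PBS differed between times by a direct test of that difference (edgeR, beyond 1.5-fold). Between LPS 15 min and LPS 30 min, the difference in log2 fold change was 3.53 for Cd14 and 0.74 for Lbp. Between LPS 30 min and LPS 4 h, it was 4.15 for Cd14, 3.29 for Irak3, 2.95 for Myd88, 2.43 for Tlr4, 1.38 for Tirap, and 1.17 for Ly96. All of these were higher at the later time, in 3 of 3 libraries against each of the earlier group. Of all genes, 4.76% were called between LPS 15 min and LPS 30 min (2.77% higher) and 28.9% between LPS 30 min and LPS 4 h (17.0% higher). The calls of Lbp and Ly96 were lost with limma and with library size alone. That of Ly96 was also lost with DESeq2 and in some fits with 1 library left out.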

How the results depend on the processing

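With each library left out in turn, 0 of the 10 genes were called at LPS 15 min, 1 at LPS 30 min, 6 to 7 at LPS 4 h, 2 to 3 between LPS 15 min and LPS 30 min, and 5 to 6 between LPS 30 min and LPS 4 h. Between LPS 15 min and LPS 30 min, 1 was called with library size alone and 1 with limma at either pseudocount, and the cause was not tested. With no fold limit, 6 were called at LPS 15 min, 5 at LPS 30 min, and 5 between them, and of the pathway list 28 at LPS 15 min, 28 at LPS 30 min, 24 between them, and 48 between LPS 30 min and LPS 4 h, as a test against 0 calls smaller changes. Of all genes, this test called 7393 at LPS 15 min, 7066 at LPS 30 min, 13124 at LPS 4 h, 7153 between LPS 15 min and LPS 30 min, and 12498 between LPS 30 min and LPS 4 h, beside 814, 884, 6315, 911, and 5530 with the limit. Library size alone called 10523 at LPS 4 h and 8915 from LPS 30 min to LPS 4 h. With limma, 388 to 410 were called at the first time, 503 to 536 at the second, and 417 to 448 between them. The replicate block gave Ticam1 at LPS 4 h (adjusted p = 0.0413, edgeR) and Myd88 between LPS 15 min and LPS 30 min (0.0435) as further calls and changed no other call of the 10 genes. Of the values of single genes under alternatives, 743 kept direction and side of the threshold, 25 came to pass it, 11 no longer passed it, and 20 turned their sign, all of them uncalled in both fits. With library size alone, the log2 fold change turned to -0.13 for Tirap at LPS 30 min, -0.18 for Ly96 at LPS 4 h, and -0.051 for Ly96 at LPS 30 min against LPS 15 min, and at LPS 4 h against LPS 30 min to -0.0089 for Lbp, -0.24 for Ticam1, and -0.46 for Irak4. Tirap at LPS 30 min was at -0.0088 with the transcript length offset and at -0.0187 and -0.0182 with limma. Leaving out 1 library turned the sign of Tlr4 (-0.092 to 0.18) and Ticam2 (-0.71 to 0.11) at LPS 15 min, of Ly96 (-0.21 to 0.33) at LPS 30 min against LPS 15 min, and of Irak4 (-0.052 to 0.21) and Ticam2 (-1.71 to 0.45) at LPS 4 h against LPS 30 min. The pathway list kept 2, 3, 5, and 30 calls with each library left out at LPS 15 min, between LPS 15 min and LPS 30 min, at LPS 30 min, and between LPS 30 min and LPS 4 h, and 34 to 35 at LPS 4 h. Depth limits Ticam2 (1 to 27 fragments a library) and Ly96 (23 to 75).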
